A study of Penicillium oxalicum with 9 samples.

Results

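The Penicillium oxalicum mutant MuPOX08340 was set against the control strain Ku70, gene by gene, by RNA sequencing of mycelium. The comparison holds 6 of the 9 libraries of the series, taken by the strain in their labels: MuPOX08340 F, S and T and Ku70 F, S and T. The 3 libraries of MuPOX01907, a mutant of another gene, entered the model for the spread between libraries and give a second level beside most results. Of the 9834 gene IDs in the files, 8623 had enough reads to be tested and 1211 did not. Of the 9834, 116 had no read in any of the 9 libraries.

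MuPOX08340 is labelled as a mutant of POX08340, and its titles name liquid medium with 1% starch. MuPOX01907 is labelled as a mutant of POX01907, also in 1% starch. Ku70 is named for a gene of non-homologous end joining, whose loss makes targeted deletions easier in filamentous fungi, and its titles name 1% Avicel, a microcrystalline cellulose. The names of the Ku70 libraries in the titles also carry POX01907, the gene of the other mutant, and what this means is not stated in the labels. Strain and stated medium are therefore confounded here and cannot be told apart. The growth protocol attached to every library names Avicel, starts from MuKu70 spores and gives 24 h of shaking at 28 °C and 180 rpm. Every library is also labelled with 1 g of hyphae and 100 mL of culture. Whether MuPOX08340 carries the Ku70 mutation too, how POX08340 was mutated and how many clones were grown is not stated in the labels. The labels do not state that F, S and T were separate cultures, and the p-values thus rest on a spread between libraries that may be technical.

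Penicillium oxalicum is a filamentous fungus that secretes enzymes which break down plant polysaccharides. Starch is cut by alpha-amylases, which act inside its chains, and by glucoamylases, which release glucose from chain ends, whereas cellulose is cut by cellobiohydrolases, endoglucanases and beta-glucosidases. In such fungi the genes for these enzymes are switched by transcription factors and by the carbon source, and the series was made to study factors that act on amylase genes. The files name genes by ID only. The roles given below for the starch, cellulase and xylanase IDs and for PoxRsrA come from memory of published work on strain HP7-1, and no role is given for any other ID.

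The libraries were close in depth, with 14412296 to 14802260 expected counts each. Ku70 F stood apart from the other Ku70 libraries. The Pearson correlation of log2(FPKM + 1), taken over genes and so not over independent replicates, was 0.943 to 0.967 between the MuPOX08340 libraries and Ku70 S or T, but 0.884 to 0.901 between the MuPOX08340 libraries and Ku70 F. Ku70 S and T thus lay nearer to every MuPOX08340 library than to Ku70 F, with which they correlated at 0.918 and 0.909. Ku70 F exceeded Ku70 S and T by 8-fold or more at 103 IDs and lay 8-fold or more under them at 79, while no other library of the comparison exceeded 6 such IDs on either side. Results are therefore given with all libraries and again without Ku70 F. Its part in the results was not tested beyond that.

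The transcript of the mutated gene was missing from the mutant. POX08340 had 0 reads in MuPOX08340 F, S and T, against 232, 226 and 208 reads in MuPOX01907 and 876, 1013 and 870 reads in Ku70. In FPKM, a read count scaled to gene length and library size, it measured 0 in every MuPOX08340 library, 8.26, 8.01 and 7.28 in MuPOX01907 and 30.6, 35.7 and 30.6 in Ku70. With a floor of 3 reads over the group, its level in MuPOX08340 was at least 907-fold lower than in the Ku70 libraries, or at least 931-fold against Ku70 S and T alone (edgeR adjusted p = 1.23e-05, and 6.38e-06 without Ku70 F). Against MuPOX01907 it was at least 221-fold lower. POX01907, the gene mutated in the other strain, measured 24.2, 20.4 and 19.9 FPKM in MuPOX08340 and 22.9, 17.1 and 16.5 in Ku70. That difference did not pass the test, with a log2 fold change of 0.17 (SE 0.198, edgeR adjusted p = 0.592), or of 0.35 without Ku70 F (adjusted p = 0.129).

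Both starch enzyme IDs fell in MuPOX08340. Levels are of bulk mycelium, in which fewer cells that express a gene and less RNA per cell cannot be told apart. POX01356, in the HP7-1 literature the raw-starch-digesting glucoamylase PoxGA15A, measured 23.8, 16.3 and 15.4 FPKM in MuPOX08340 F, S and T, against 200, 404 and 121 FPKM in Ku70 F, S and T. All 3 mutant libraries lay below all Ku70 libraries, although the Ku70 libraries spread widely. Such a lack of overlap between MuPOX08340 and Ku70, in either direction, was met by 2870 of the 8623 tested IDs. The mean of 18.5 ± 4.59 FPKM in MuPOX08340 stood 13.1-fold below the 242 ± 146 FPKM of Ku70 (SD, n = 3 each), a log2 fold change of -3.74 (SE 0.435, edgeR adjusted p = 0.00145). Without Ku70 F it was 14.2-fold, at -3.85 (SE 0.446, adjusted p = 0.000764), and without Ku70 S, the highest library, 8.69-fold. The lower POX01356 level was present against MuPOX01907 as well, whose titles name the same medium: that strain held 228, 206 and 194 FPKM, for a log2 fold change of -3.85 (SE 0.437, edgeR adjusted p = 0.000283).

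POX09352, in that literature the alpha-amylase Amy13A, measured 4.08, 3.95 and 4.26 FPKM in MuPOX08340, 7.21, 6.81 and 3.98 in MuPOX01907 and 34.9, 46.2 and 23.3 in Ku70. The MuPOX08340 libraries lay close together and did not overlap with Ku70, but overlapped with MuPOX01907. Against Ku70 the log2 fold change was -3.11 (SE 0.315, edgeR adjusted p = 0.00069), and -3.10 without Ku70 F (SE 0.333, adjusted p = 0.000487). Against MuPOX01907 it was -0.90 (SE 0.30, adjusted p = 0.045), which stayed under the 2-fold minimum set for a call. POX03446, which encodes the starch enzyme regulator PoxRsrA in that literature, measured 15.5, 13.7 and 18.6 FPKM in MuPOX08340 and 30, 22.0 and 24.5 FPKM in Ku70. Its libraries did not overlap between these strains, as was the case at 2870 of the 8623 tested IDs. The difference of -0.70 on the log2 scale (SE 0.172, edgeR adjusted p = 0.0312) was also under the 2-fold minimum, as was that of -0.55 without Ku70 F (SE 0.153, adjusted p = 0.0361). Between MuPOX08340 and MuPOX01907 POX03446 differed by -0.07 (adjusted p = 0.782).

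**Figure D1:**
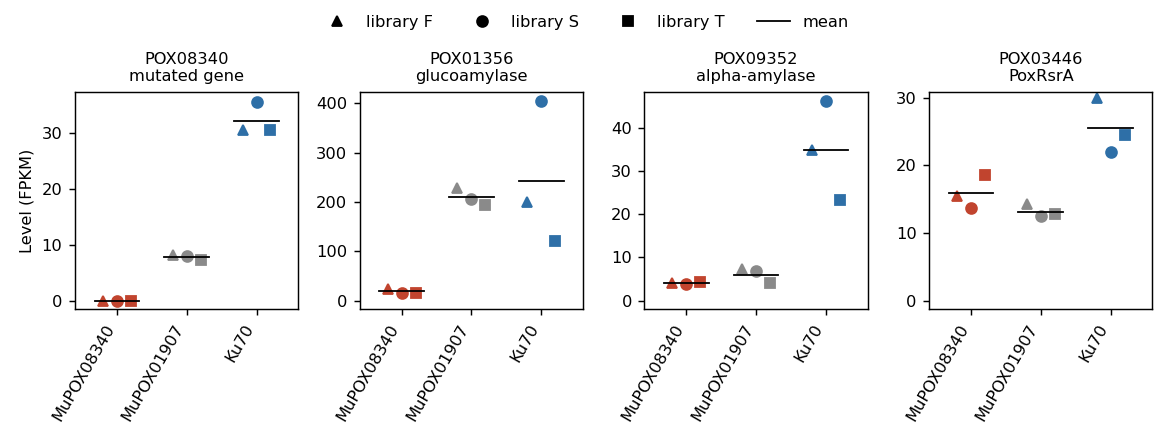
Level in FPKM (linear axis from 0) of the mutated gene POX08340, of the starch enzyme IDs POX01356 and POX09352 and of the PoxRsrA ID POX03446, in each library of MuPOX08340, MuPOX01907 and Ku70. Triangles, circles and squares are libraries F, S and T and lines are group means; POX08340 is at 0 in MuPOX08340, and POX01356 is at 15.4 to 23.8 FPKM in MuPOX08340 alone, against 121 to 404 in Ku70.

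Beyond these IDs, calls were made at a Benjamini-Hochberg adjusted p under 0.05 and a change of at least 2-fold in edgeR's quasi-likelihood test. MuPOX08340 had 240 IDs higher than Ku70 and 443 lower, which are 2.78% and 5.14% of the 8623 tested. Against that background of 5.14%, both of the 2 starch IDs were among the lower calls, with a median log2 fold change of -3.43, while the median of all genes was -0.0012. At least 4-fold changes were called at 95 IDs that were higher and 169 that were lower, and without Ku70 F at 95 and 144. Without Ku70 F, 276 of 8681 IDs were higher (3.18%) and 497 lower (5.73%). Of the 240 and 443 calls, 199 and 367 were also called in the same direction without Ku70 F, and 0 were called in the opposite direction.

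These counts moved with single libraries. The number of higher calls was 385, 117 and 132 when MuPOX08340 F, S or T was left out in turn, and 159 without Ku70 S. The number of lower calls was 164 and 182 when MuPOX08340 S or T was left out, and 673 without Ku70 T. Of the 443 IDs called lower, 14 were among those where Ku70 F exceeded Ku70 S and T by 8-fold or more, and 9 among those where it lay 8-fold or more under them.

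The called IDs differed in how much of the RNA they made up. Those called lower took 2.29%, 2.01% and 1.85% of the counts in MuPOX08340 F, S and T, against 10.2%, 9.65% and 8.26% in Ku70 F, S and T. Those called higher took 3.90%, 3.93% and 3.998% in MuPOX08340 and 0.899%, 1.27% and 1.48% in Ku70. These shares describe lists chosen by the same values and carry no test. By level, as the mean FPKM of all 9 libraries, the share called higher was 7.11% of the 211 tested IDs below 1 FPKM, 4.10% of the 1803 at 1 to 10 FPKM and 2.21% of the 4988 at 10 to 100 FPKM. The share called lower in the same bins was 5.69%, 8.26% and 4.39%. As counts, the higher calls in these bins were 15, 74 and 110, and 15, 94 and 121 without Ku70 F. The lower calls were 12, 149 and 219, and 14, 170 and 230 without Ku70 F. Among the 189 IDs at 1000 FPKM or more it was 3.17% higher and 4.76% lower.

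**Figure D2:**
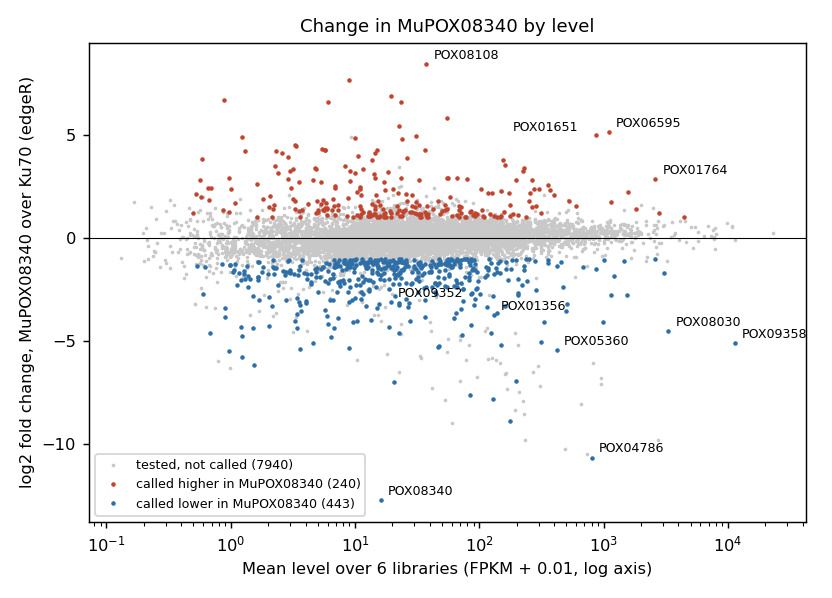
Log2 fold change of MuPOX08340 over Ku70 (edgeR) against the mean level of the 6 libraries (FPKM + 0.01, log axis) for the 8623 tested IDs, with 240 called higher in red and 443 called lower in blue. Named IDs are marked, among them POX09358 and POX08030 as abundant IDs far below 0; the fitted value of POX08340, with 0 reads in the mutant, depends on the prior count and is no bound.

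The 2 largest rises called with and without Ku70 F were of IDs nearly silent in both other strains. POX08108 measured 81.1, 75.2 and 67.7 FPKM in MuPOX08340, 0.07, 0.27 and 0 in MuPOX01907 and 0.07, 0.34 and 0.20 in Ku70. In reads this was 3272 over the MuPOX08340 libraries and 9 over the Ku70 libraries, a ratio of 369 (95% interval 194 to 807, exact binomial, counting error only). The log2 fold change was 8.44 (SE 0.514, edgeR adjusted p = 5.98e-05), and 8.05 without Ku70 F (adjusted p = 1.72e-05). POX03844 measured 23.2, 15.5 and 14.2 FPKM in MuPOX08340, 0.18, 0.29 and 0.12 in MuPOX01907 and 0.06, 0.12 and 0.06 in Ku70. Its 900 reads against 4 gave a ratio of 228 (88.8 to 839) and a log2 fold change of 7.67 (SE 0.401, edgeR adjusted p = 2.96e-05), or 7.52 without Ku70 F (adjusted p = 1.92e-05). Together with POX05862 and POX05863, described below, these were the 4 of the 9834 IDs at 10 FPKM or more in every MuPOX08340 library and under 1 FPKM in every Ku70 library, and all 4 were under 1 FPKM in every MuPOX01907 library too. The reverse pattern was met by POX08340 alone. Judged against Ku70 S and T only, 9 IDs met the first pattern and 6 the reverse.

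The most abundant of the IDs that rose in both fits was POX01764. It measured 4510, 4842 and 4409 FPKM in MuPOX08340, 326, 316 and 240 in MuPOX01907 and 797, 574 and 474 in Ku70, without overlap. Its log2 fold change was 2.87 (SE 0.235, edgeR adjusted p = 0.000245), and 3.12 without Ku70 F (adjusted p = 1.92e-05). POX02008 followed with 3170, 2421 and 2292 FPKM in MuPOX08340, 771, 766 and 708 in MuPOX01907 and 529, 1184 and 1237 in Ku70. Its log2 fold change of 1.40 (SE 0.297, edgeR adjusted p = 0.0191) was 1.11 without Ku70 F (adjusted p = 0.00184), and the call was lost without MuPOX08340 S (adjusted p = 0.0634) or T (adjusted p = 0.0523). POX06595 and POX01651, singled out after their values were seen, joined a high level to a large change. POX06595 measured 2439, 1912 and 2080 FPKM in MuPOX08340, 75.4, 64.8 and 47.0 in MuPOX01907 and 46.0, 51.4 and 81.4 in Ku70, at a log2 fold change of 5.15 (SE 0.285, edgeR adjusted p = 4.06e-05; 5.01 without Ku70 F). POX01651 measured 1972, 1410 and 1658 FPKM in MuPOX08340, 138, 127 and 86.0 in MuPOX01907 and 58.2, 40.5 and 53.6 in Ku70, at 5.03 (SE 0.261, adjusted p = 2.96e-05; 5.15 without Ku70 F). In all 3 of POX01764, POX06595 and POX01651 the MuPOX08340 libraries lay above all 6 others. This describes how they were chosen and carries no test: POX01764 had to be free of overlap with Ku70, and the values of POX06595 and POX01651 were known.

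Among the falls, the most abundant ID was POX09358. It measured 753, 665 and 525 FPKM in MuPOX08340, 4487, 5985 and 3785 in MuPOX01907 and 9257, 29076 and 28047 in Ku70, so that the strains formed 3 separate levels. Against Ku70 its mean level was 34.2-fold lower, and 44.1-fold lower than in Ku70 S and T, with log2 fold changes of -5.11 (SE 0.463, edgeR adjusted p = 0.000399) and -5.47 (SE 0.229, adjusted p = 6.38e-06). Against MuPOX01907 the log2 fold change was -3.22 (SE 0.424, adjusted p = 0.000613). POX08030 measured 242, 269 and 334 FPKM in MuPOX08340, 372, 314 and 267 in MuPOX01907 and 10214, 4191 and 4584 in Ku70. Here the MuPOX08340 and MuPOX01907 libraries overlapped (log2 fold change -0.52, edgeR adjusted p = 0.276), and both lay below Ku70. Against Ku70 the log2 fold change of POX08030 was -4.52 (SE 0.403, adjusted p = 0.00038), and -3.97 without Ku70 F (SE 0.194, adjusted p = 1.19e-05). POX05360, singled out after its values were seen, had a middle level in MuPOX01907. It measured 15.1, 18.4 and 23.8 FPKM in MuPOX08340, 62.9, 64.3 and 63.6 in MuPOX01907 and 1034, 690 and 731 in Ku70, with log2 fold changes of -5.44 against Ku70 (SE 0.273, adjusted p = 2.96e-05), -5.22 without Ku70 F and -2.08 against MuPOX01907 (adjusted p = 0.000273).

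After POX08340 itself, the 2 largest falls called in both fits, among IDs with no overlap between libraries and at least 10 FPKM in the Ku70 mean, differed in which Ku70 libraries carried them. POX00863 measured 0.61, 0.10 and 0.21 FPKM in MuPOX08340, 0.21, 0.21 and 0.30 in MuPOX01907 and 1.11, 24.97 and 96.6 in Ku70 F, S and T. MuPOX01907 was thus as low as MuPOX08340 (log2 fold change between them 0.02, edgeR adjusted p = 0.996), and Ku70 F lay near both. Against Ku70 the log2 fold change of POX00863 was -6.98 (SE 1.47, edgeR adjusted p = 0.0188) and -7.55 without Ku70 F (SE 0.688, adjusted p = 0.0002), but the call was lost without MuPOX08340 S (adjusted p = 0.0881) or T (adjusted p = 0.0837), and the value was -7.90 without MuPOX08340 F and -5.38 without Ku70 T. The IDs next to it, singled out after their values were seen, had the same shape. POX00861 measured 9.91, 7.90 and 6.50 FPKM in MuPOX08340, 8.68, 11.3 and 6.6 in MuPOX01907 and 15.6, 298 and 564 in Ku70. POX00862 measured 21.5, 17.0 and 15.2 FPKM in MuPOX08340, 15.9, 17.8 and 11.7 in MuPOX01907 and 23.3, 627 and 1160 in Ku70. Both overlapped between MuPOX08340 and MuPOX01907, at log2 fold changes of -0.47 (edgeR adjusted p = 0.714) and -0.10 (adjusted p = 0.944). All 4 IDs from POX00860 to POX00863 were called lower with and without Ku70 F, as the stretch was drawn after the values were seen. Of all tested IDs 5.14% were called lower, and 5.73% without Ku70 F. The calls of POX00861 and POX00862 were likewise lost without MuPOX08340 S or T, and without Ku70 T their values were -4.31 and -4.22. POX00005 had the opposite shape: 3.72, 4.07 and 2 FPKM in MuPOX08340, 13.1, 15.7 and 16.6 in MuPOX01907 and 1144, 12.5 and 5.48 in Ku70 F, S and T. Its log2 fold change of -6.94 (SE 1.92, edgeR adjusted p = 0.045) was -1.48 without Ku70 F (SE 0.377, adjusted p = 0.0263), and -7.55 without Ku70 S, and the call was lost when any library of MuPOX08340 or MuPOX01907 was left out. Limma gave -3.48 (adjusted p = 0.176), and the fit of the 2 strains alone gave -6.99 (edgeR adjusted p = 0.119), or -1.46 without Ku70 F (adjusted p = 0.0844).

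**Figure D3:**
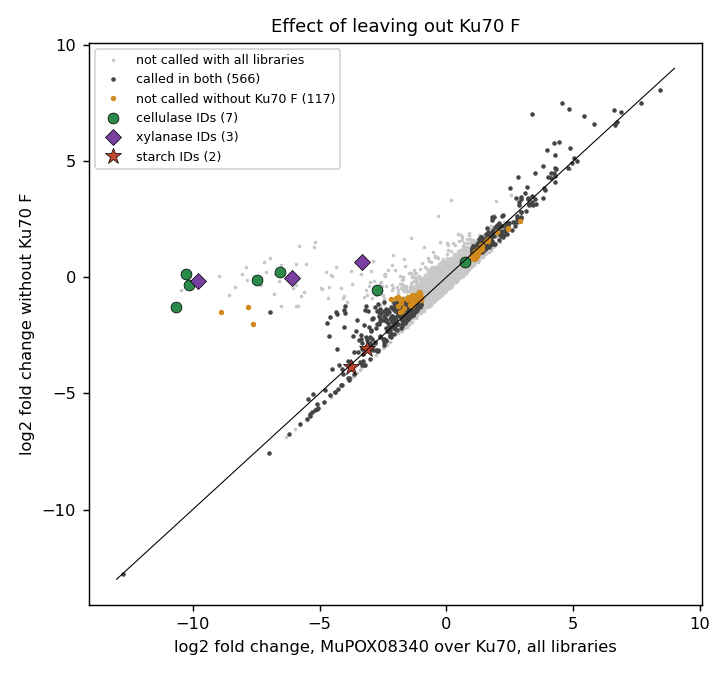
Log2 fold change of MuPOX08340 over Ku70 with all libraries (horizontal axis) and without Ku70 F (vertical axis), with the line of equality. The 566 IDs called in both fits in the same direction are dark and the 117 not called without Ku70 F are orange; the starch IDs lie on the line, while the 3 xylanase IDs and 6 of the 7 tested cellulase IDs, all but POX06835, leave it for values nearer to 0 on the vertical axis.

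Some called IDs followed each other in number. Their order along the chromosomes was not tested, nor was the number of runs that the call rates alone would give. Of the 240 higher calls, 39 (16.3%) lay in 8 runs of at least 3 consecutive IDs, and of the 443 lower calls, 46 (10.4%) lay in 13 such runs. Without Ku70 F, 50 of 276 higher calls and 60 of 497 lower calls did. The longest run of rises held 14 IDs, POX05853 to POX05866, with log2 fold changes of 1.39 to 6.89. The median over its IDs of the group mean was 5.40 FPKM in MuPOX08340, 0.08 in MuPOX01907 and 0.455 in Ku70. Without Ku70 F the run held 15 IDs, POX05852 to POX05866, at 1.11 to 7.22.

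The highest members of that run were POX05862 and POX05863. POX05862 measured 43.9, 41.9 and 30.2 FPKM in MuPOX08340, 0.20, 0.41 and 0.33 in MuPOX01907 and 0.40, 0.07 and 0.47 in Ku70 (log2 fold change 6.89, edgeR adjusted p = 7.04e-05; 7.12 without Ku70 F). POX05863 measured 58.2, 44.0 and 36.6 FPKM in MuPOX08340, 0.11, 0.05 and 0.11 in MuPOX01907 and 0.76, 0.33 and 0.27 in Ku70 (6.62, adjusted p = 4.34e-05; 7.22 without Ku70 F). In both IDs every MuPOX08340 library was at least 30 FPKM and every other library under 1 FPKM. Over the wider stretch of 23 IDs from POX05849 to POX05871, drawn after the values were seen, 18 were called higher and all 23 had a fold change above 0, and 19 were called higher without Ku70 F. Of all tested IDs 2.78% were called higher, and 3.18% without Ku70 F.

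A second run of rises held 6 IDs, POX09469 to POX09474, at log2 fold changes of 1.28 to 4.85 (1.44 to 7.48 without Ku70 F). Its median level was 8.62 FPKM in MuPOX08340, 0.215 in MuPOX01907 and 0.547 in Ku70. The median does not describe every ID of this run. POX09471 averaged 67.8 FPKM in MuPOX01907, above MuPOX08340 at 1.36 and Ku70 at 0.55. POX09472 measured 39.5, 33.7 and 26.3 FPKM in MuPOX08340, 4.13, 3.80 and 4.22 in MuPOX01907 and 4.32, 2.67 and 3.46 in Ku70 (log2 fold change 3.22, edgeR adjusted p = 0.000117). Its MuPOX08340 libraries stood above all 6 others.

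Among the falls, the 2 longest of the 13 runs with all libraries were POX09357 to POX09361 and POX09716 to POX09720, with 5 IDs each. Without Ku70 F, runs of 7 IDs (POX09603 to POX09609) and of 6 (POX01690 to POX01695 and POX09596 to POX09601) exceeded the 5 of POX09357 to POX09361. The run POX09357 to POX09361, which begins 5 IDs after the alpha-amylase ID POX09352 and holds the abundant POX09358, had log2 fold changes of -5.11 to -2.23 (-5.47 to -2.20 without Ku70 F). Its median level was 11.3 FPKM in MuPOX08340, 60.4 in MuPOX01907 and 60.5 in Ku70. The median can fall on a different ID in each strain. In MuPOX01907, POX09357 averaged 6.56 FPKM, below MuPOX08340 at 11.3, and POX09358 averaged 4752, below Ku70 at 22127. POX09359 averaged 23.6 FPKM in MuPOX01907 and 24.7 in Ku70, and POX09360 60.4 and 46.4. POX09361 of this run measured 141, 99.2 and 97.3 FPKM in MuPOX08340, 1269, 1587 and 1030 in MuPOX01907 and 1554, 2320 and 1716 in Ku70. The log2 fold change of POX09361 was -4.08 against Ku70 (SE 0.263, edgeR adjusted p = 7.04e-05), -4.18 without Ku70 F and -3.87 against MuPOX01907 (adjusted p = 2.25e-05). Extended to POX09365 after the values were seen, the stretch had 8 of 9 IDs called lower, beside 5.14% of all tested IDs.

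The run POX09716 to POX09720 had log2 fold changes of -5.25 to -2.61 and a median level of 3.20 FPKM in MuPOX08340, 16.4 in MuPOX01907 and 91.6 in Ku70. Without Ku70 F it reached over 9 IDs, POX09713 to POX09721, at -6.54 to -1.76. Here too the median can fall on a different ID in each strain. Means in MuPOX01907 and MuPOX08340 were 0.89 and 3.20 FPKM at POX09716 and 7.99 and 8.02 at POX09719. They were 97.3 and 29.9 FPKM at POX09717 and 16.4 and 1.04 at POX09720. POX09718 measured 2.41, 2.44 and 2.43 FPKM in MuPOX08340, 26.1, 23.2 and 14.5 in MuPOX01907 and 118, 61.1 and 95.3 in Ku70 (log2 fold change -5.25, SE 0.337, edgeR adjusted p = 7.04e-05; -5.004 without Ku70 F). The 3 strains did not overlap at POX09718.

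A longer stretch, singled out after its values were seen, changed with the use of Ku70 F. Of the 36 IDs from POX09588 to POX09623, 28 were tested, 27 had a fold change below 0 and 15 were called lower. Without Ku70 F 30 were tested, all 30 were below 0 and 23 were called lower. Of all tested IDs 5.14% were called lower, and 5.73% without Ku70 F. The median level over the 36 IDs was 0.16, 0.38 and 0.20 FPKM in MuPOX08340 F, S and T, 3.80, 2.77 and 2.17 in MuPOX01907 and 0.225, 4.97 and 4.20 in Ku70 F, S and T. Ku70 F was thus as low there as MuPOX08340.

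**Figure D4:**
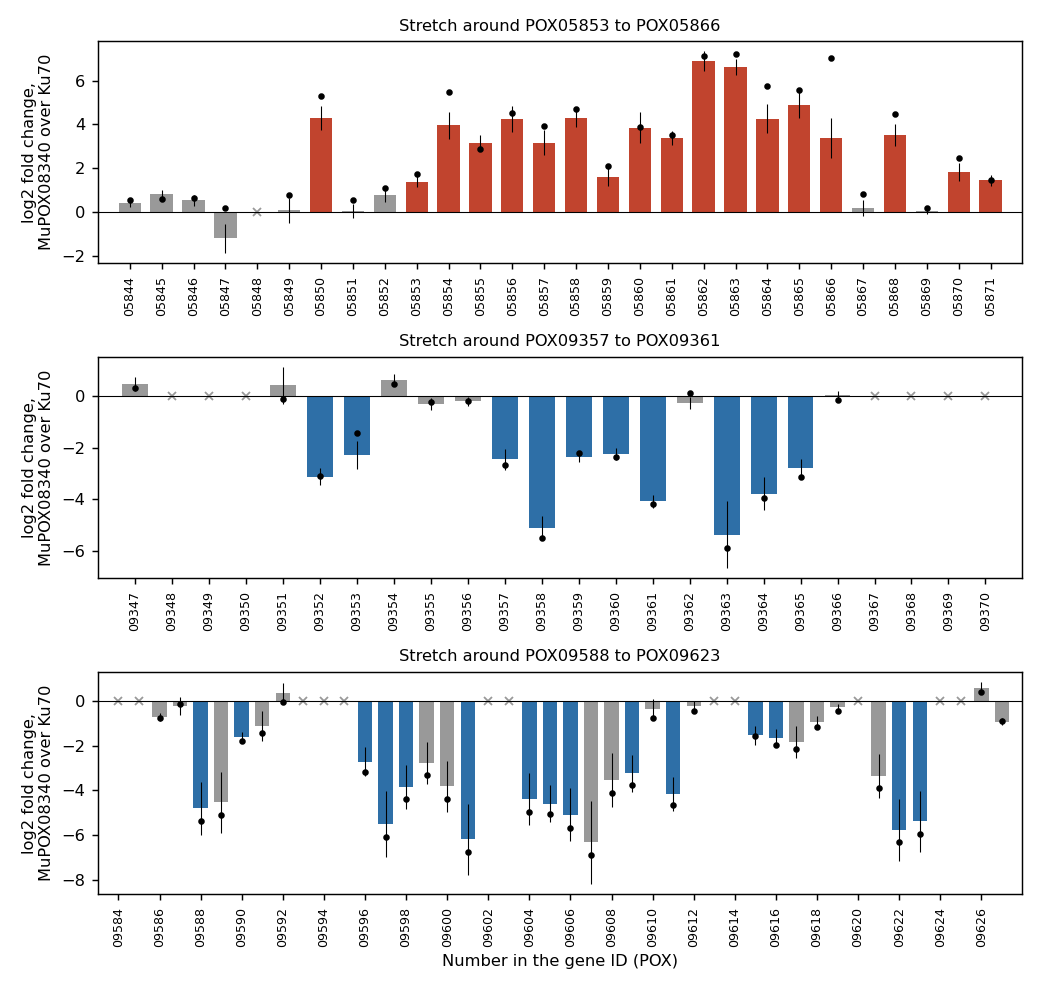
Log2 fold change of MuPOX08340 over Ku70 by number in the gene ID for the stretches around POX05853 to POX05866, POX09357 to POX09361 and POX09588 to POX09623. Bars are the fit with all libraries with the SE as a line (red called higher, blue called lower, grey not called), black dots the fit without Ku70 F and crosses IDs not tested; 14 consecutive red bars, 5 consecutive blue bars and a patchy blue stretch are seen.

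At the IDs next to the mutated gene, 3 of 9 tested within 5 numbers on each side were called, 2 higher and 1 lower, with and without Ku70 F. Over all tested IDs the shares were 2.78% higher and 5.14% lower, and 3.18% and 5.73% without Ku70 F. POX08341, the next number, measured 24.1, 22.5 and 16.8 FPKM in MuPOX08340, 32.2, 24.4 and 23.6 in MuPOX01907 and 172, 177 and 142 in Ku70. Its log2 fold change was -2.98 against Ku70 (SE 0.202, edgeR adjusted p = 9.51e-05), -2.93 without Ku70 F and -0.69 against MuPOX01907 (adjusted p = 0.0216), under the 2-fold minimum. POX08341 was thus lower in both mutants than in Ku70. The mutants differ from Ku70 in strain and in stated medium, and the cause was not tested. POX08339, the number before, measured 285, 237 and 215 FPKM in MuPOX08340, 17.8, 18.8 and 19.0 in MuPOX01907 and 11.7, 73.9 and 65.6 in Ku70. Its log2 fold change was 2.27 (SE 0.539, edgeR adjusted p = 0.0275) and 1.81 without Ku70 F (adjusted p = 0.000108). That call was lost without MuPOX08340 F (adjusted p = 0.0523), S (0.0845) or T (0.0748) and without MuPOX01907 S (0.054). POX08335 measured 56.5, 80.4 and 92.3 FPKM in MuPOX08340, 37.0, 42.2 and 42.6 in MuPOX01907 and 23.3, 24.7 and 38.9 in Ku70 (log2 fold change 1.39, adjusted p = 0.00854; 1.27 without Ku70 F).

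Around the starch IDs, the same windows held 1 higher call of 7 tested near POX01356 and 2 lower calls of 7 near POX09352, beside 2.78% higher and 5.14% lower over all tested IDs. They were POX01353, at a log2 fold change of 1.02 (edgeR adjusted p = 0.00906, 1.09 without Ku70 F), and POX09353, at -2.28 (adjusted p = 0.03, and -1.42 without Ku70 F), with POX09357 of the run above. Without Ku70 F, 1 more ID near POX01356 was called lower. POX01353 lay at the 2-fold minimum and fell under it without MuPOX08340 T or Ku70 S. The call of POX09353 was lost without MuPOX08340 S or T and without any MuPOX01907 library.

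The cellulase IDs set Ku70 F apart from every other library rather than MuPOX08340 from Ku70. The median level of the 8 IDs was 1.92, 2.25 and 2.31 FPKM in MuPOX08340 F, S and T, 1.45, 1.80 and 3.29 in MuPOX01907, and 1106, 2.85 and 2.75 in Ku70 F, S and T. They took 2.32% of all counts in Ku70 F and at most 0.0386% in any other library. POX04786 measured 0.92, 1.33 and 0.78 FPKM in MuPOX08340 and 4809, 3.24 and 1.64 in Ku70, and was the 1 ID of the 7 tested that was called lower, beside 5.14% of all tested IDs (log2 fold change -10.68, SE 3.03, edgeR adjusted p = 0.0476). Without Ku70 F its value was -1.28 (SE 0.514, adjusted p = 0.106), and 0 of the 7 were called. The call was also lost without any 1 of the MuPOX08340 or MuPOX01907 libraries, and without Ku70 S the value was -11.31. The list had a median log2 fold change of -7.47 in the fit of all 9 libraries and of -0.13 once Ku70 F was left out, beside medians near 0 for all genes in both fits. All 7 had an unadjusted p under 0.05 with all libraries and 2 without Ku70 F, beside 33.8% and 37.8% of all tested IDs.

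POX06835 left the pattern of the other cellulase IDs. It measured 139, 93.8 and 78.6 FPKM in MuPOX08340, 10.1, 11.4 and 10.5 in MuPOX01907 and 52.9, 91.0 and 37.3 in Ku70. MuPOX08340 and Ku70 overlapped (log2 fold change 0.75, edgeR adjusted p = 0.146, and 0.67 without Ku70 F, adjusted p = 0.209), whereas the value against MuPOX01907 was 2.93 (SE 0.351, adjusted p = 0.000373). It was the 1 cellulase ID called there, where 9.86% of the 8623 tested IDs were called higher and 10.4% lower. Calls against MuPOX01907 numbered 850 higher and 901 lower by edgeR, and 968 and 1009 without Ku70 F, which entered the shared spread only. Limma on FPKM as deposited gave 1112 and 535, and placed the median of all genes at 0.34 in place of 0.05.

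The 3 xylanase IDs followed Ku70 F as well. Their median was 22.9, 25.9 and 25.5 FPKM in MuPOX08340, 18.5, 20.1 and 23.0 in MuPOX01907 and 1405, 18.8 and 19.5 in Ku70 F, S and T. With all libraries 0 of the 3 were called by edgeR, all 3 had an unadjusted p under 0.05 (33.8% of all tested IDs did) and the median log2 fold change was -6.09. Without Ku70 F 0 were called, 1 had an unadjusted p under 0.05 (37.8% of all tested IDs did) and the median was -0.02. POX06783 measured 33.4, 29.4 and 27.6 FPKM in MuPOX08340, 70.1, 60.8 and 50.2 in MuPOX01907 and 827, 18.8 and 19.5 in Ku70. Its sign turned with Ku70 F, at -3.31 with all libraries (edgeR adjusted p = 0.115) and 0.65 without Ku70 F (adjusted p = 0.0276), under the 2-fold minimum.

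**Figure D5:**
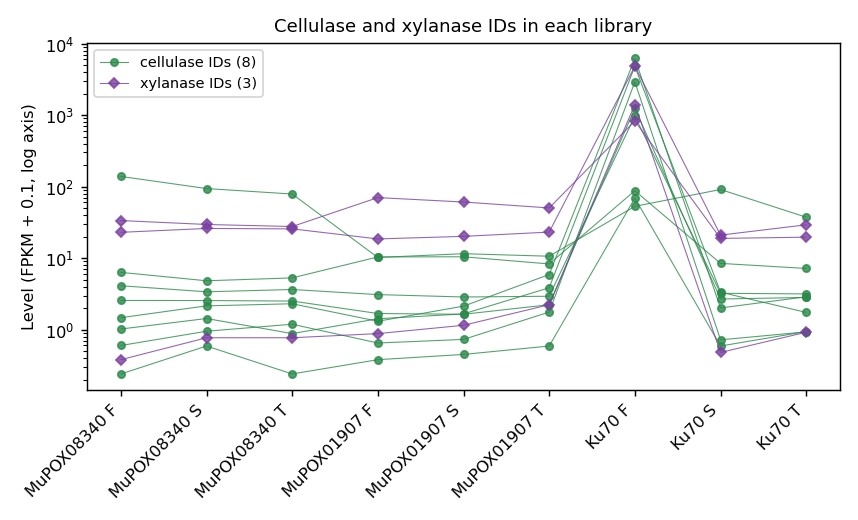
Level (FPKM + 0.1, log axis) of the 8 cellulase IDs (green circles) and the 3 xylanase IDs (purple diamonds) in each of the 9 libraries, with lines joining the values of an ID. All but POX06835 peak in Ku70 F, where the cellulase median is 1106 FPKM, against at most 3.29 FPKM in the other 8 libraries.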

How the data were processed

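TRIzol RNA of 9 libraries, 3 per strain, was read on an Illumina HiSeq instrument, per the labels' protocols. Per the file headers, each deposited file gives an expected count and an FPKM value for each gene ID. Between 97.1% and 97.8% of the expected counts were whole. Per the submitters' processing notes, the tools were RSEM 1.2.12, DESeq2, Bowtie2 2.1.0 and BWA 0.7.10-r789. Not given in the sources used here are their roles, the genome build, the strandedness and how reads common to near-identical genes were counted.

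Expected counts were rounded and tested with edgeR 4.0.16 in R 4.3.3 (TMM scaling, filterByExpr over the 3 strains, quasi-likelihood test, Benjamini-Hochberg adjustment over all tested IDs). All 9 libraries shared 1 fit, and a second fit left out Ku70 F. The SE was derived as the absolute log2 fold change divided by the square root of F. Levels and folds between means are FPKM as deposited. DESeq2 1.42.0 on the rounded counts and limma 3.58.1 on log2(FPKM + 1) were alternatives. On simulated counts for this comparison (8607 IDs run), edgeR recovered 97% of 4-fold and 30% of 2-fold changes. Recovery required an estimate of at least 2-fold, so the share for 2-fold changes reflects that cutoff as well as power. Changed IDs were drawn only above a minimum mean count, and no simulated library stood apart as Ku70 F did. No library repeated another within counting noise, with a chi-square per degree of freedom of at least 26.4 within the groups compared.

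IDs were named where they are in the labels or in lists recalled from the HP7-1 literature, as the 2 largest changes and the 2 most abundant changed IDs per direction (called in both fits, no overlap, at least 10 FPKM in the higher group), as called IDs within 5 numbers of POX08340 and the starch IDs, or in the 2 longest runs per direction. Members and lists were chosen with earlier results of these data known. A RefSeq table of assembly ASM172317v3 matched 0 of the 9834 IDs, so no names, coordinates or sequences were taken from it. Intervals and floors cover counting error only.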

Additional observations from a re-analysis of the deposited data

How the results depend on the processing

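Counts of called IDs against Ku70, 240 higher and 443 lower, were 113 and 201 in a fit of the 2 strains alone, and ranged over 117 to 385 higher and 164 to 673 lower when 1 library was left out. DESeq2 gave 350 and 558, limma 214 and 305, RLE scaling 236 and 447, and no low-count filter 219 and 462. Against MuPOX01907, limma called 535 IDs lower with a pseudocount of 1, 573 with 0.1, 538 without an FPKM filter and 597 without Ku70 F, and 1328 higher with a pseudocount of 0.1. The calls of POX08340, POX01356 and POX09352 against Ku70 held in each of these settings. In the fit of the 2 strains alone, 13 named IDs lost their call: POX00005, POX00861, POX00862, POX00863, POX01353, POX01695, POX02008, POX04786, POX05866, POX08339, POX09353, POX09469 and POX09471. Limma lost the call of POX00863 with a pseudocount of 1 and kept it with 0.1 (adjusted p = 0.0375).

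The sign turned without Ku70 F at 3 cellulase or xylanase IDs, and at 4 in the fit of the 2 strains alone without Ku70 F. Most of these values were near 0. POX05587 was at 0.15 (edgeR adjusted p = 0.852), and 0.18 with the 2 strains alone. POX06147 was at 0.21 (edgeR adjusted p = 0.388), 0.24 with the 2 strains alone and 0.17 with limma. POX06783 was at 0.65, 0.67 and 0.62 in the same settings. POX08484 stayed at -0.017 in the main fit without Ku70 F, and was at 0.0087 with the 2 strains alone and 0.0025 with limma. Over all omissions of 1 library POX05587 ranged from -10.89 to 0.15, POX06147 from -7.16 to 0.21, POX06783 from -3.90 to 0.65 and POX08484 from -6.71 to -0.017. The upper end of each of these ranges is the fit without Ku70 F. The cause of these changes was not tested.

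The data did not settle whether libraries of the same letter are paired. Correlations of deviations were 0.051 for F, -0.19 for S and 0.27 for T, and -0.30 to 0.24 between different letters. Deviations from a mean of 3 libraries depend on each other, so these values cannot exclude pairing. A fit with the replicate letter as a block gave 271 higher and 405 lower. Under the block the calls of POX00005 (-4.65), POX00862 (-4.73), POX01695 (-1.03) and POX04786 (-6.55) were lost. With 3 libraries per strain, 1 Ku70 library apart, and calls limited to changes of at least 2-fold, an ID that was not called is not shown to be unchanged.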

Other observations

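Some IDs went opposite ways against the 2 other strains, in comparisons that share the MuPOX08340 libraries. They were chosen after their values were seen. POX01695 measured 2123, 1601 and 1448 FPKM in MuPOX08340, 55.3, 51.0 and 32 in MuPOX01907 and 2401, 3795 and 4044 in Ku70. Against MuPOX01907 its log2 fold change was 4.88 (SE 0.317, edgeR adjusted p = 2e-05), while against Ku70 it was -1.004 (adjusted p = 0.0419), and -1.19 without Ku70 F (adjusted p = 0.00935). With Ku70 F kept, the call against Ku70 was lost under limma (adjusted p = 0.052), in the fit of the 2 strains alone (0.0735), and without MuPOX08340 S (0.146) or T (0.15), MuPOX01907 F (0.0573) or S (0.0754), or Ku70 S (0.0925) or T (0.0753). It belongs to the 6 IDs POX01690 to POX01695, of which 3 were called lower against Ku70, and 6 without Ku70 F. Of all tested IDs 5.14% were called lower, and 5.73% without Ku70 F. The median level of the 6 IDs was 263, 232 and 180 FPKM in MuPOX08340 F, S and T, 27.6, 25.7 and 20.9 in MuPOX01907 and 404, 505 and 552 in Ku70.

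POX09471, inside a run of rises, measured 1.70, 1.34 and 1.04 FPKM in MuPOX08340, 61.6, 67.2 and 74.5 in MuPOX01907 and 0.66, 0.37 and 0.62 in Ku70. Its log2 fold change was 1.28 against Ku70 (edgeR adjusted p = 0.0143), a call lost without MuPOX08340 S, and -5.98 against MuPOX01907 (SE 0.247, adjusted p = 2.01e-06).

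POX03632 measured 114, 98.1 and 109 FPKM in MuPOX08340, 0, 0.49 and 0.48 in MuPOX01907 and 3.35, 0.48 and 1.69 in Ku70, at a log2 fold change of 5.81 (edgeR adjusted p = 0.000399) and of 6.58 without Ku70 F. The effective length that the counts and FPKM imply was taken only from libraries with at least 50 counts for an ID. Its median was 1147 bases for 219 of the 240 IDs called higher and 1343 for 417 of the 443 called lower. For 8042 of the 8623 tested IDs it was 1309.6.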
